A study of Mus musculus with 56 samples.

Results

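The 10 genes described here were listed by name for their place in capillaries and their growth. The rule uses no measured value, but the list was drawn up with earlier results of these data known. They are the secreted ligands Vegfa, Vegfb, Angpt1 and Egfl7, the receptors Kdr, Flt1, Tek and Tie1, and the junction proteins Pecam1 and Cdh5. They are 10 of the 15539 genes in the count table, and all 10 were among the 14321 genes that had enough reads to be tested.

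Gastrocnemius muscle was sequenced from 56 C57Bl/6 mice, 7 in each of 8 groups that cross sex and genotype with the kind of wheel, locked or running. The labels give chow diet, an age of 5 months in one place and running from week 10 to week 20 of age in another, with free access to the wheel. HuRm-/- mice carry floxed Elavl1 alleles and Cre recombinase driven by the Mlc1f promoter, which is active in skeletal muscle fibers, and the controls are floxed littermates (HuR fl/fl). HuR, the product of Elavl1, is an RNA-binding protein that stabilizes many mRNAs. The groups are named by sex (M or F), genotype (C for control, H for HuRm-/-) and E for a running wheel, so that MC is the male controls with locked wheels and FHE the female HuRm-/- mice with running wheels. Distances run by single mice were not among the sources used here.

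Capillaries bring oxygen and fuel to muscle fibers, and endurance activity is known to add them. Muscle fibers secrete VEGF-A, which binds the tyrosine kinase receptors VEGFR2 (Kdr) and VEGFR1 (Flt1) on endothelial cells. Angiopoietin-1 (Angpt1), made mainly by cells around the vessel, acts on TIE2 (Tek), with TIE1 as its partner receptor, and keeps vessels stable, while Pecam1 and VE-cadherin (Cdh5) hold endothelial cells together.

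Counts per mouse summed to between 6639782 and 21633091. The lowest count of any member in any mouse was 58 reads (Tek) and the highest was 2147 (Vegfb), so that all 10 were above the noise of single reads in every mouse. Values are given as CPM, reads per 1000000 after TMM scaling, and differences on the log2 scale with their standard error (SE) from limma. A gene was called where its p, adjusted over 14321 genes by the Benjamini-Hochberg method, did not exceed 0.05. Muscle markers were high in all mice (Acta1 19050 to 30024 CPM), and the endothelial marker Emcn ran from 3.65 to 15.3 CPM. Summed markers of liver cells (12 genes) ran from 3.03 to 3388 CPM, with the highest value in FC mouse 15. The median correlation of a mouse with the other mice of its group ran from 0.926 (MH mouse 9) to 0.981. The counts of every pair of mice from 1 group differed by more than sampling noise.

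Elavl1 was not lower in the mice labelled HuRm-/-. Its log2 difference from controls was −0.05 in locked males, 0.11 in locked females and 0.01 in running females, none of which was called (limma adjusted p = 0.892, 0.714 and 0.978). In running males it was 0.44 higher in the mice labelled HuRm-/- (SE 0.11, limma adjusted p = 0.0242), a call lost in 3 of 12 alternatives (adjusted p at most 0.133) and without any of MCE mice 10, 13 and 25 or MHE mice 1 and 21 (at least 0.33, adjusted p at most 0.132). The labels name a 3′ mRNA kit, whose reads come from the end of a transcript, and where such reads lie outside the deleted part their level does not check the label. The study's methods name a total RNA kit instead, whose reads are not confined to that end, and the counts do not settle which was used. Directions between genotypes therefore rest on the labels.

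In GRCm38, Vegfa (ENSMUSG00000023951) occupies chr17:46016993-46032369, Kdr (ENSMUSG00000062960) chr5:75932827-75978458, Tie1 (ENSMUSG00000033191) chr4:118471191-118490061 and Angpt1 (ENSMUSG00000022309) chr15:42424723-42676977. These 4 are protein-coding genes read from the minus strand. The RefSeq promoters (GRCm38.p6, 250 bases before to 50 after a start site) hold an entry for 7 of the 10 members, and those of Vegfa, Kdr and Tie1 are shown because these genes were called higher with running wheels. Capitals mark GGAA and its reverse complement TTCC, the core that ETS factors read, which is common in promoters of endothelial genes.
Vegfa, chr17:46032328-46032627, minus strand: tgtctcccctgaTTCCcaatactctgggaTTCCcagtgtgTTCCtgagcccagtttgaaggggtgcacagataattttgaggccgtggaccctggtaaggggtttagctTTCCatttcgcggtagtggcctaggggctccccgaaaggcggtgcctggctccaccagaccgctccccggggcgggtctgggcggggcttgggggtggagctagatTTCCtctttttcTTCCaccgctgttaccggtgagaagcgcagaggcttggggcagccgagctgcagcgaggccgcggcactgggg
Kdr, chr5:75978406-75978705, minus strand: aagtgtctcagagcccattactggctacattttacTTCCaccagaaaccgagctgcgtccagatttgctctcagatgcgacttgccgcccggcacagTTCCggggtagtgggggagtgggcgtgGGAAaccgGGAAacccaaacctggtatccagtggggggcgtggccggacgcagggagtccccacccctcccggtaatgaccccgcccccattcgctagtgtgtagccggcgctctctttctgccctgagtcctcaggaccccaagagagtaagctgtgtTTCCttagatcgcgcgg
Tie1, chr4:118489800-118490099, minus strand: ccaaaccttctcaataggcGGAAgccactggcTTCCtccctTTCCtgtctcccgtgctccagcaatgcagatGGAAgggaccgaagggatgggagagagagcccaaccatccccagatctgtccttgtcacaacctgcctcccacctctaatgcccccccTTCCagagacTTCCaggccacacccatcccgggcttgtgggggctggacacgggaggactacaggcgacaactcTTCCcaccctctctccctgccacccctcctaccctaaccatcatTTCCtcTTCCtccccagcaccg
These letters occur 6 times in the Vegfa sequence, 5 times in Kdr and 9 times in Tie1, on either strand. Over 27025 promoters of the same length, 95.9% hold them and the median is 3 matches. The GC box GGGCGG was found 2 times in Vegfa, 2 times in Kdr and not in Tie1, and 35.9% of all promoters hold it. The hypoxia response core ACGTG was not found in these 3 windows, and 19.7% of promoters hold it. The window at another Vegfa start site, chr17:46025114-46025413, holds 1 and lies inside the gene. Sequence outside the windows was not searched. A match describes the letters and does not show that a factor binds.

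Whether the members respond to voluntary running was asked first, by setting each running group against its locked group. Averaged over the 4 comparisons, 4 of the 10 members were higher with running wheels, against 5.96% of all genes called in either direction and 3.42% called higher. They were Kdr (log2 difference 0.25, SE 0.05, limma adjusted p = 0.00177), Vegfa (0.20, SE 0.05, adjusted p = 0.012), Tie1 (0.21, SE 0.06, adjusted p = 0.0245) and Cdh5 (0.15, SE 0.05, adjusted p = 0.0381). As folds these are 1.19 for Kdr, 1.15 for Vegfa, 1.16 for Tie1 and 1.11 for Cdh5. All 10 averages were above 0, with a median of 0.088, against 53.1% of all genes and a median of 0.0092. In bulk muscle, more cells of a type and more RNA in each cell cannot be told apart.

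**Figure D1:**
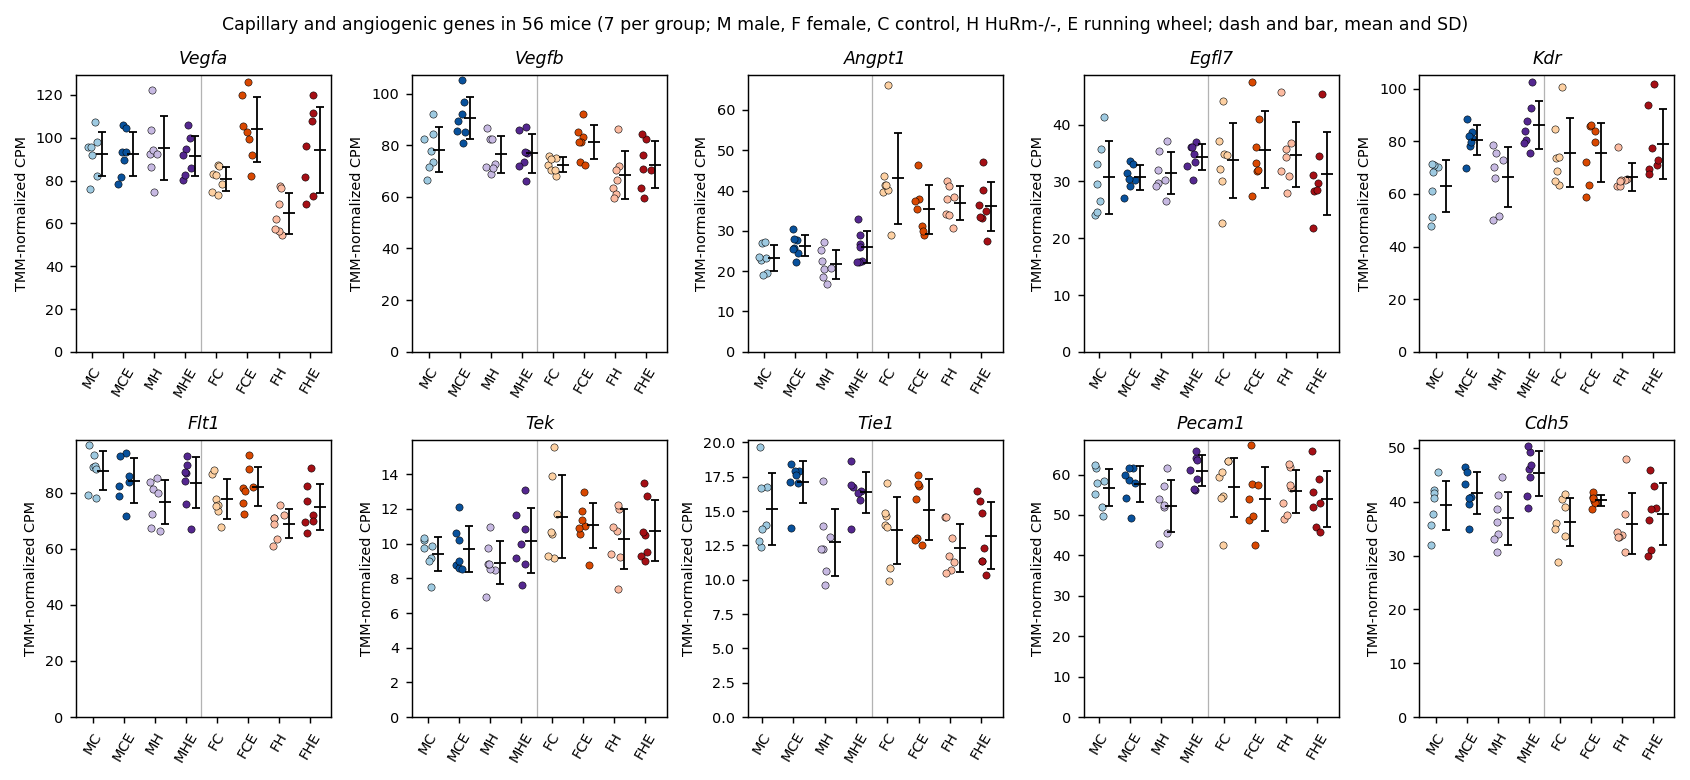
CPM of the 10 genes in each of the 56 mice (y axis, from 0) by group (x axis, 7 mice each); points are mice, the dash and bar are the mean and SD, and the vertical line parts males from females. Kdr lies higher in MCE and MHE than in MC and MH, Vegfa is lowest in FH, and Angpt1 is higher in the female groups.

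Vegfa, the main growth signal for capillaries, followed the wheel in females. In female controls it ran from 73.1 to 87.1 CPM with locked wheels (median 82.8) and from 82.0 to 126 with running wheels (median 103). Of the 7 running mice, 6 lay above every locked mouse. The log2 difference was 0.34 (SE 0.11, limma adjusted p = 0.033), a 1.27-fold level, and 8.74% of all genes were called in this comparison. With adipocyte and liver markers as covariates the difference was 0.41 and with fibroblast markers 0.34, but neither was called (adjusted p = 0.0878 and 0.243), and the call was also lost in 7 of 56 fits without 1 mouse. In female HuRm-/- mice Vegfa ran from 54.7 to 77.5 CPM with locked wheels (median 62.0) and from 69.0 to 120 with running wheels (median 96.3). All 7 running mice were above the locked median and 5 were above every locked mouse. The difference was 0.52 (SE 0.11, limma adjusted p = 0.00189), a 1.43-fold level, with 3.85% of all genes called. It held without any single mouse and with each covariate, and missed the threshold when these 2 groups alone were fitted (0.51, adjusted p = 0.0531).

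In males, Vegfa had nearly the same levels with either wheel. Male controls ran from 76.2 to 107 CPM with locked wheels (median 95.7) and from 78.5 to 106 with running wheels (median 93.3), a log2 difference of −0.0042 with a 95% interval of −0.21 to 0.20. Male HuRm-/- mice ran from 74.9 to 123 CPM (median 92.5) and from 80.3 to 106 (median 91.8), a difference of −0.05 with an interval of −0.26 to 0.16. Both intervals leave out the difference found in female HuRm-/- mice. By median, FH was the lowest of the 8 groups and FCE the highest, and the 4 male groups lay within 91.8 to 95.7 CPM, closer together than the spread within any of them.

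The other ligands were not called in any wheel comparison of the main fit. Vegfb, a VEGFR1 ligand tied to fatty acid handling in muscle, averaged 0.12 higher (SE 0.04, limma adjusted p = 0.0644). This average was called with sample quality weights (0.13, limma adjusted p = 0.0155). It was also called without MC mouse 16, MHE mouse 2, FH mouse 34 or FHE mouse 2 (adjusted p at most 0.0444). Vegfb was near the threshold. Its largest difference was in male controls, from a median of 77.8 CPM (66.4 to 92.2) with locked wheels to 89.5 (81.0 to 105) with running wheels, which is 0.22 on the log2 scale (adjusted p = 0.108). All 7 running males were above the locked median there. Egfl7, an endothelial secreted protein of the vessel matrix, averaged 0.011 (95% interval −0.11 to 0.13), and its group medians lay between 29.6 and 34.9 CPM. Angpt1 averaged 0.030 (interval −0.09 to 0.15), with values of opposite sign in the sexes that are described further on.

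Kdr, the receptor that carries most of the VEGF-A signal, was higher with running wheels in males. In male controls it ran from 48.0 to 71.5 CPM with locked wheels (median 68.4) and from 69.8 to 88.6 with running wheels (median 81.3). Of the running mice, 6 of 7 were above every locked mouse. The log2 difference was 0.35 (SE 0.11, limma adjusted p = 0.0453), a 1.28-fold level, and Kdr was 1 of 10 members called against 3.24% of all genes. This call lies close to the threshold. It was lost in 24 of 56 fits that left out 1 mouse, most of all without MC mouse 20, where the difference was 0.29 (adjusted p = 0.161), and with fibroblast markers as a covariate (0.39, adjusted p = 0.0643).

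In male HuRm-/- mice Kdr ran from 50.0 to 78.5 CPM with locked wheels (median 70.1) and from 75.7 to 103 with running wheels (median 83.7), again with 6 of 7 running mice above every locked mouse. The difference was 0.39 (SE 0.10), but only 0.0419% of all genes were called in this comparison and Kdr was not among them (limma adjusted p = 0.139). With DESeq2 it was 0.37 (adjusted p = 0.0416). In females Kdr differed by 0.24 in HuRm-/- mice (adjusted p = 0.213), from a median of 65.3 CPM (62.8 to 77.9) to 72.9 (67.4 to 102). In female controls the difference was 0.0026, with medians of 73.8 CPM (63.4 to 100) and 79.6 (58.6 to 86.1). None of these single comparisons in females was called in the main fit. With other endothelial markers as a covariate, Kdr was called in female HuRm-/- mice (0.31, limma adjusted p = 0.0294).

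Tie1 and Cdh5 were higher with running wheels only as averages over the 4 comparisons and in no single one. Tie1, the receptor that modulates TIE2, had its largest difference in male HuRm-/- mice, from 9.61 to 17.2 CPM with locked wheels (median 12.3) to 13.7 to 18.7 with running wheels (median 16.4). All 7 running mice were above the locked median, and the difference was 0.39 (SE 0.12, limma adjusted p = 0.174). Without FC mouse 12, the average for Tie1 was 0.18 (adjusted p = 0.0525). Cdh5, the adhesive protein of endothelial junctions, went in the same group from 30.7 to 44.6 CPM (median 36.2) to 38.9 to 50.4 (median 46.0), with 5 of 7 running mice above every locked mouse. That difference was 0.30 (SE 0.09, adjusted p = 0.164). The call of Cdh5 over the 4 comparisons was lost in 26 of 56 fits without 1 mouse, with an adjusted p of at most 0.076.

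The remaining receptors and Pecam1 were not called with running wheels. Flt1, the decoy-like receptor for VEGF-A and VEGF-B, averaged 0.061 (95% interval −0.014 to 0.14). Tek averaged 0.038 (−0.08 to 0.16) and Pecam1, a marker of all endothelial cells, 0.027 (−0.06 to 0.11). In male HuRm-/- mice 5 members (Angpt1, Kdr, Tie1, Pecam1 and Cdh5) had an unadjusted p under 0.05 from limma, where 12.7% of all genes did, and none of the 10 was called. There the median over the members was 0.20, against 0.0007 over all genes. Other lists lay above 0 in the same comparison: 25 of 30 other endothelial markers (median 0.14), 10 of 12 mural (0.25), 6 of 6 fibroblast (0.32), 10 of 10 leukocyte (0.36) and 9 of 10 adipocyte markers (0.45), none of them called. The part of these cells in the members' values was not tested.

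**Figure D2:**
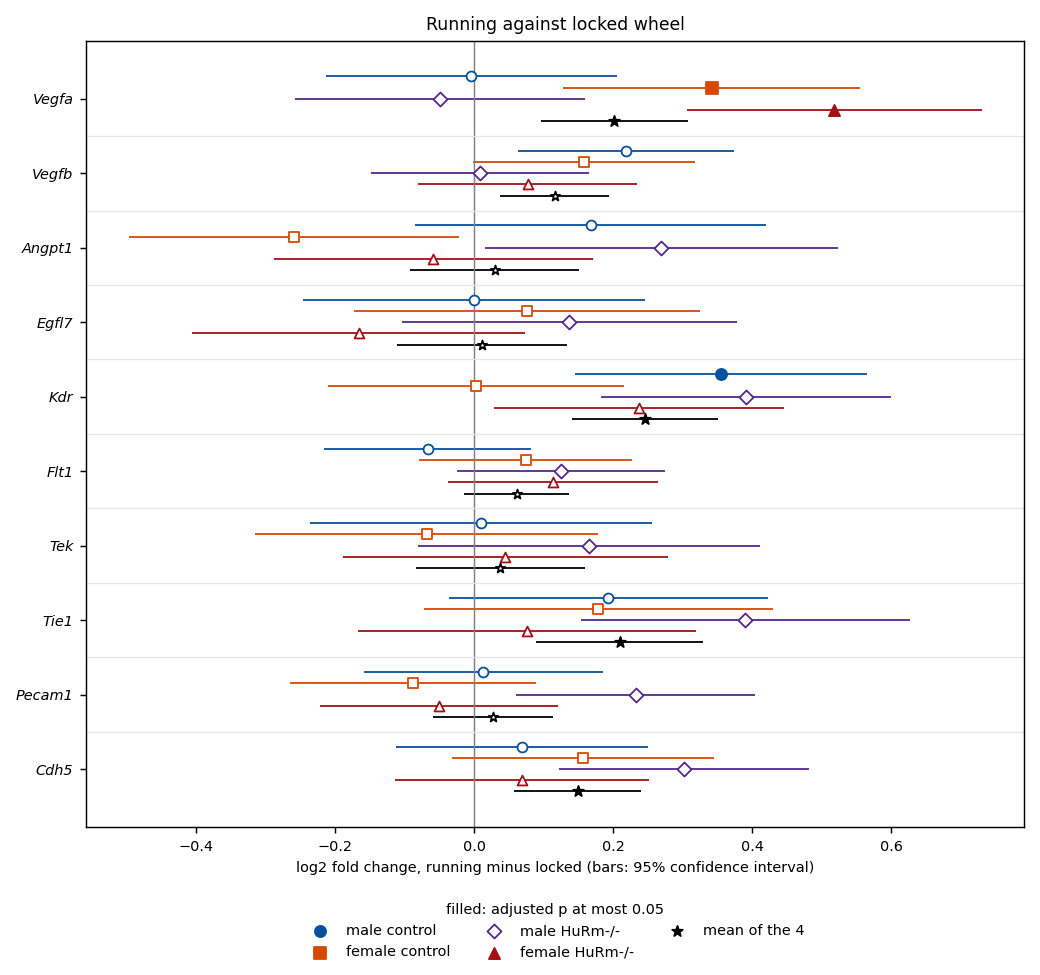
Log2 difference of running minus locked wheels (x axis) for each gene (y axis) in the 4 sex and genotype combinations and their mean; bars are 95% confidence intervals from limma and filled symbols an adjusted p of 0.05 or less. Vegfa is filled in both female comparisons, Kdr in male controls, and Vegfa, Kdr, Tie1 and Cdh5 in the mean.

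Other genes of the same pathways were counted from lists of 192 genes. Of 12 tested genes of the VEGF and angiopoietin pathway, 1 was higher in the mean over the 4 wheel comparisons, the VEGF co-receptor Nrp1 (0.16, SE 0.04, limma adjusted p = 0.00483). The list's median was 0.026. Of 10 hypoxia and PGC-1 regulators, 3 were higher: Egln3, a hypoxia-inducible prolyl hydroxylase that marks HIF for breakdown (0.66, SE 0.07, adjusted p = 7.13e-09), and the coactivators Ppargc1b (0.31, SE 0.05, adjusted p = 9.38e-06) and Ppargc1a (0.15, SE 0.05, adjusted p = 0.0419). PGC-1 coactivators are known to raise Vegfa in muscle. Their list's median was 0.075.

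Genes of cells and signals around the vessel were counted in the same mean wheel difference, in which 5.96% of all genes were called. None of 12 Notch and tip cell genes was called (median 0.084), nor any of 13 other angiogenic ligands (0.065). Of 8 angiogenesis inhibitors, 1 was lower, the metalloproteinase inhibitor and VEGFR2 antagonist Timp3 (−0.14, SE 0.04, limma adjusted p = 0.0235). The 8 had a median of −0.16. Of 12 mural cell markers, 1 was higher, the potassium channel subunit Abcc9 (0.11, SE 0.04, adjusted p = 0.049), with a median of 0.056.

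The endothelial markers outside the 10 had a median near that of all genes. Of 30 tested, none was higher and 1 was lower with running wheels, the water channel Aqp1 (−0.27, SE 0.05, limma adjusted p = 0.000157). Their median was 0.0042, against 0.0092 for all genes, and 15 of 30 were above 0. With the mean level of these 30 markers as a covariate, the same 4 members were called: Kdr at 0.25 (adjusted p = 9.25e-05), Vegfa at 0.20 (0.00307), Tie1 at 0.21 (0.0126) and Cdh5 at 0.15 (0.0167). Neither of 2 tested cell cycle genes was called.

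Markers of other cell types were counted in the same mean. None of 6 fibroblast, 10 leukocyte, 5 lymphatic, 3 platelet or 5 erythroid markers was called. Of 12 liver markers 4 were lower (median −1.99) and of 10 adipocyte markers 1 was lower, leptin (Lep, −0.92, SE 0.29, limma adjusted p = 0.0423). With adipocyte and liver markers as covariates, Vegfa was 0.23 (adjusted p = 0.0188), Kdr 0.26 (0.00751) and Tie1 0.23 (0.0385), while Cdh5 at 0.15 was not called (0.112). Among fiber genes, the fast isoforms Myh2 (0.55, SE 0.06, adjusted p = 2.99e-08) and Myh1 (0.50, SE 0.06, adjusted p = 1.02e-07) were higher and 4 of 8 fast fiber genes were lower. The slow fiber gene Myl3 was higher (0.32, adjusted p = 0.00318), as was myoglobin (Mb, 0.40, adjusted p = 1.59e-07).

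The wheel difference was then compared between the sexes. For Vegfa it was 0.46 larger in females, averaged over genotypes (SE 0.11, limma adjusted p = 0.00195), and for Angpt1 it was 0.38 smaller (−0.38, SE 0.12, adjusted p = 0.0282). These were 2 of 10 members, against 13.7% of all genes. Within HuRm-/- mice the term was 0.57 for Vegfa (SE 0.15, adjusted p = 0.0373), the only member called against 1.35% of all genes. Within controls it was 0.35 for Vegfa (adjusted p = 0.143) and −0.43 for Angpt1 (adjusted p = 0.115), with 8.74% of genes called. For Kdr the term was −0.25 over both genotypes (95% interval −0.46 to −0.043, adjusted p = 0.1), so a larger difference in males was not shown.

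Markers of connective tissue moved with sex and wheel as well. In the wheel by sex term 6 of 6 fibroblast, 7 of 10 leukocyte, 4 of 10 adipocyte, 4 of 5 erythroid, 3 of 5 lymphatic and 1 of 3 platelet markers were lower, that is, with running wheels they fell more or rose less in females. Summed fibroblast markers had medians of 3199 CPM in FC (2578 to 5183), 1933 in FCE (1544 to 2378), 2874 in FH (2275 to 3980) and 2733 in FHE (2077 to 2878). In males these medians were 1600 in MC (1182 to 2163), 2284 in MCE (1381 to 2926), 1899 in MH (1169 to 2286) and 2289 in MHE (1624 to 2594). With the fibroblast markers as a covariate, the count of genes called in this term went from 1961 to 140. The term for Vegfa was then 0.45 (limma adjusted p = 0.0807), about as large as before. That for Angpt1 was −0.47 (adjusted p = 0.124), against −0.38 without the covariate. Neither was called. That covariate was chosen after the data were seen, and the part of these cells in the result was not tested otherwise.

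**Figure D3:**
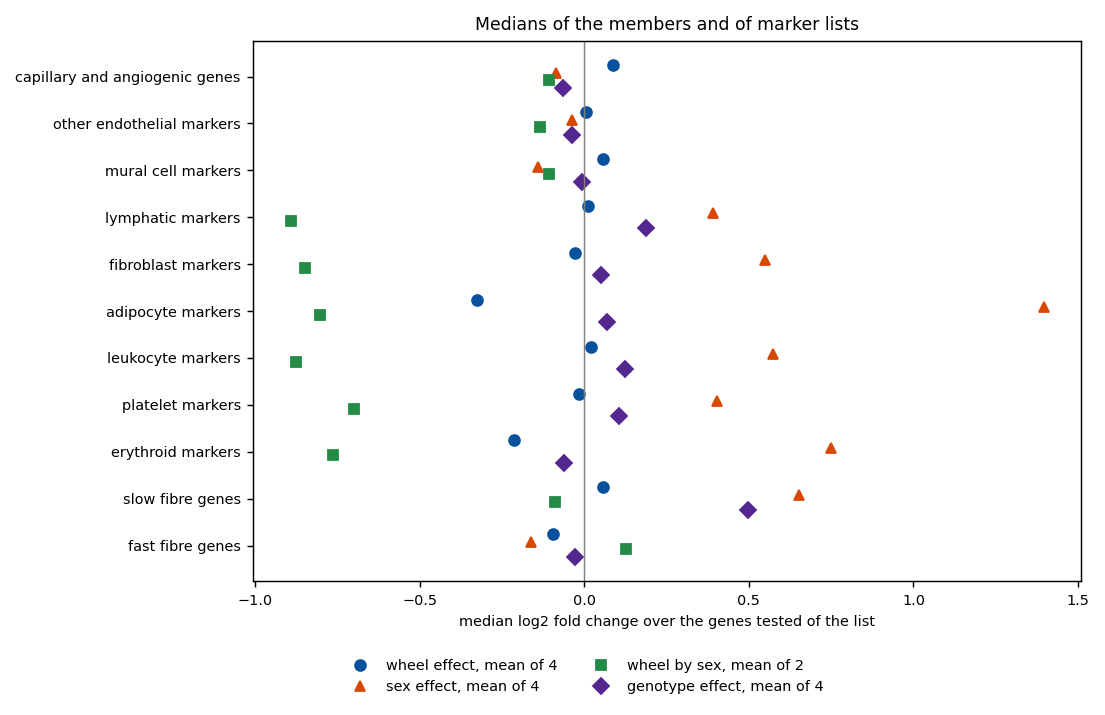
Median log2 difference (x axis) over the tested genes of the 10 members and of 10 marker lists (y axis) in the mean wheel, sex and genotype comparisons and in the wheel by sex term. The members and the other endothelial markers lie between −0.14 and 0.088, while lymphatic, fibroblast, adipocyte, leukocyte, platelet and erythroid markers lie to the right for sex and to the left for wheel by sex.

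Angpt1 differed most between the sexes, and in every group. In locked controls it ran from 18.96 to 27.3 CPM in males (median 23.3) and from 28.97 to 66.3 in females (median 41.3). In locked HuRm-/- mice it ran from 16.8 to 27.2 CPM in males (median 20.9) and from 30.7 to 42.3 in females (median 38.02). The sexes did not overlap in either case, as held for 6.98% of all genes in controls and 3.21% in HuRm-/- mice. Females were higher by 0.84 (SE 0.12, limma adjusted p = 7.38e-07) and 0.78 (SE 0.12, adjusted p = 2.83e-06), that is 1.80-fold and 1.72-fold. In these comparisons 21.5% and 19.3% of all genes were called.

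With running wheels the sexes lay closer. Angpt1 ran from 22.2 to 30.4 CPM in MCE (median 25.8) and from 29.04 to 46.4 in FCE (median 35.5), with 5 of 7 females above every male. It ran from 22.3 to 33.02 CPM in MHE (median 25.9) and from 27.5 to 47.1 in FHE (median 34.9), with 6 of 7 females above every male. The differences were 0.42 (SE 0.12, limma adjusted p = 0.0189) and 0.46 (SE 0.12, adjusted p = 0.0112), with 7.65% and 5.57% of all genes called. The first was lost without MCE mouse 10 or FCE mouse 26 (adjusted p at most 0.0659), and the second without FHE mouse 3 (0.38, adjusted p = 0.0517). Averaged over the 4 comparisons Angpt1 was 0.63 higher in females (SE 0.06, adjusted p = 1.49e-12). It was 0.69 with fibroblast markers as a covariate (adjusted p = 1.51e-08), 0.70 with adipocyte and liver markers (adjusted p = 5.08e-07) and 0.60 without FC mouse 20, the highest mouse.

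Vegfa was lower in females of 1 group pair. In locked HuRm-/- mice it was 0.55 lower in females (−0.55, SE 0.11, limma adjusted p = 0.000109), a fold of 0.682, and 5 of 7 females were below every male. In locked controls the difference was −0.19 (adjusted p = 0.203), and with running wheels it was 0.15 in controls (adjusted p = 0.419) and 0.015 in HuRm-/- mice (adjusted p = 0.96). No other member was called in a single comparison of the sexes in the main fit. The nearest was Cdh5 in running HuRm-/- mice (−0.27, adjusted p = 0.0547), where the median was 46.0 CPM in males and 38.6 in females.

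Averaged over the 4 comparisons of the sexes, 7 of 10 members were called, against 33% of all genes. Of these 2 were higher in females (15.8% of all genes) and 5 lower (17.1%). Besides Angpt1, Tek, the receptor of Angpt1, was higher in females (0.18, SE 0.06, limma adjusted p = 0.015). Lower in females were Vegfa (−0.14, adjusted p = 0.0294), Vegfb (−0.13, adjusted p = 0.00715), Flt1 (−0.13, adjusted p = 0.005), Tie1 (−0.18, adjusted p = 0.0189) and Cdh5 (−0.12, adjusted p = 0.0356). None of these 6 passed once adipocyte and liver markers, or fibroblast markers, were covariates (adjusted p from 0.168 to 0.775). For Vegfa the difference was then −0.20 and −0.14, about as large as before, while Vegfb went to −0.042 and −0.068, Flt1 to −0.12 and −0.085, Tie1 to −0.070 and −0.093, Cdh5 to −0.061 and −0.090, and Tek to 0.19 and 0.10. Upper-quartile scaling called 5 members, without Vegfa (adjusted p = 0.0633) and Cdh5 (0.0909). Without 1 mouse, Vegfa was lost in 2 of 56 fits (FCE mouse 28 or FHE mouse 2, adjusted p at most 0.0613) and Cdh5 in 7 (at most 0.0622), and Cdh5 was lost in 5 of 11 alternatives. In the same mean 6 of 6 fibroblast, 8 of 10 adipocyte, 7 of 10 leukocyte, 5 of 5 erythroid, 4 of 5 lymphatic, 1 of 3 platelet and 8 of 8 slow fiber genes were higher in females. Their part in the differences of the members was not tested further. Kdr (0.0095, interval −0.10 to 0.11), Egfl7 (0.070) and Pecam1 (−0.05) were not called.

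**Figure D4:**
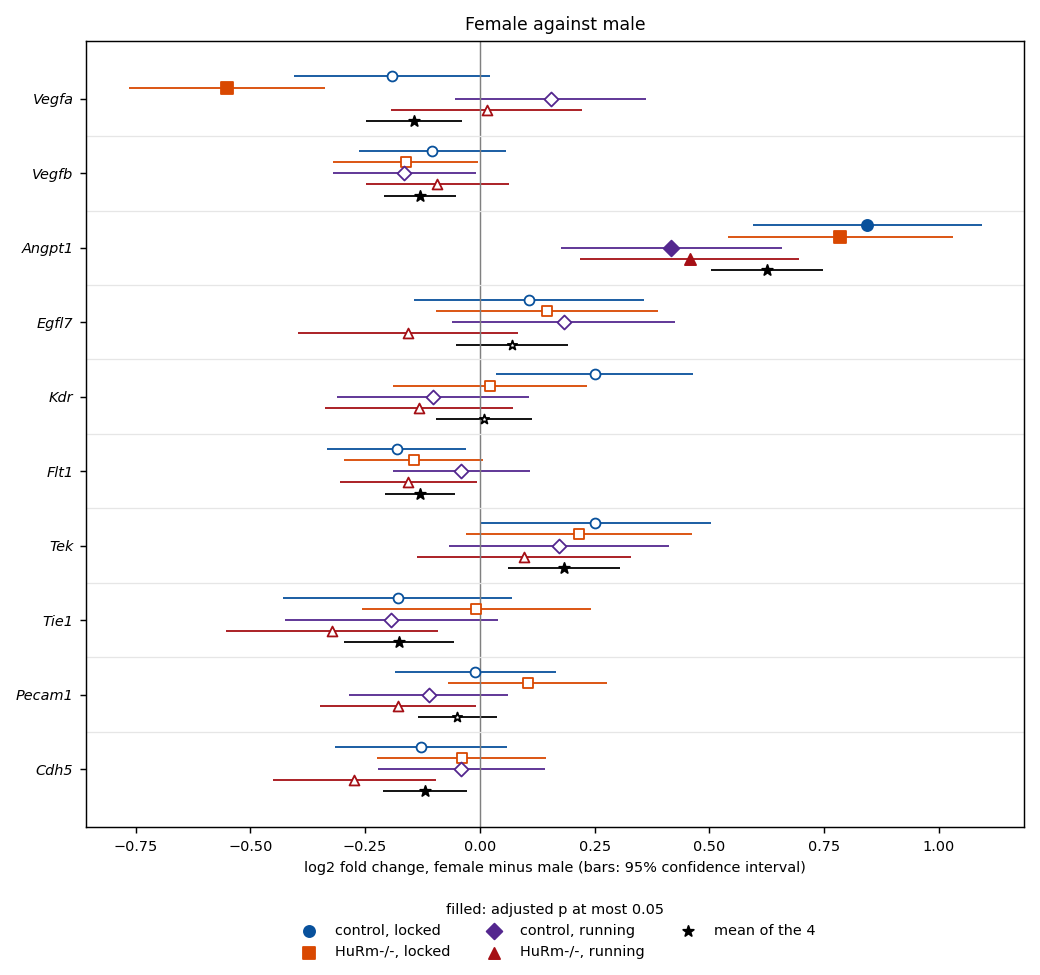
Log2 difference of female minus male (x axis) for each gene (y axis) in the 4 genotype and wheel combinations and their mean; bars are 95% confidence intervals from limma and filled symbols an adjusted p of 0.05 or less. Angpt1 is to the right of 0 and filled in every comparison, from 0.42 to 0.84, and Vegfa is filled to the left of 0 in locked HuRm-/- mice.

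Tek and its ligand can be set side by side. Tek had group medians from 8.80 CPM in MH to 10.998 in FCE, and all 8 ranges overlapped, from 6.91 CPM in 1 MH mouse to 15.6 in 1 FC mouse. Its difference between the sexes ran from 0.10 in running HuRm-/- mice to 0.25 in locked controls and was not called in any single comparison. Of the pathway list of 12, 1 gene was higher in females in the mean over the 4 comparisons, the adaptor Shb (0.47, SE 0.13, limma adjusted p = 0.00321). The VEGFR1 ligand Pgf (−0.68, adjusted p = 0.00484) and Ptprb, a phosphatase that acts on TIE2 (−0.18, adjusted p = 0.00126), were lower. These 3 were named after their values were seen.

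The mice labelled HuRm-/- were compared with controls to ask whether loss of HuR in muscle fibers goes with other capillary signals. No member was called in any of the 4 single comparisons by the main limma fit, edgeR or DESeq2, and from 1 to 2 members had an unadjusted p under 0.05 from that limma fit. In these, 1.15% of all genes were called in locked males, 0.384% in locked females, 2.63% in running males and 0% in running females, where 1807 genes had an unadjusted p under 0.05 from limma and DESeq2 called 71. These counts moved with single mice: without 1 mouse the count went from 165 to between 8 and 448 in locked males, from 55 to between 0 and 170 in locked females, and from 376 to between 86 and 521 in running males. Averaged over the 4 comparisons, 2 of 10 members were lower, against 11.8% of all genes called and 7.41% called lower. These were Vegfb (−0.13, SE 0.04, limma adjusted p = 0.0184) and Flt1 (−0.13, SE 0.04, adjusted p = 0.015), with folds of 0.913 and 0.914.

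The Vegfb difference was largest in running males, from a median of 89.5 CPM (81.0 to 105) in controls to 77.0 (65.9 to 87.1), where 5 of 7 HuRm-/- mice were below every control (−0.24, limma adjusted p = 0.0746). It was called there with sample quality weights (−0.22, limma adjusted p = 0.0349) and with the other endothelial markers as a covariate (−0.27, 0.0443). The same held without MHE mouse 4 (adjusted p = 0.0389) or FH mouse 34 (0.0475). For Flt1 the difference was largest in locked males, from 89.1 CPM (78.2 to 97.0) to 79.8 (66.2 to 85.2), with none of 7 HuRm-/- mice above the control median (−0.21, adjusted p = 0.154). The calls of Vegfb and Flt1 in the mean held in each of the 56 fits that left out 1 mouse. Vegfa differed by −0.33 in locked females (SE 0.11, adjusted p = 0.135), with 5 of 7 HuRm-/- mice below every control, and by −0.12 in the mean (adjusted p = 0.151). The median over the members was −0.064, against 0.014 over all genes. None of the 30 other endothelial markers or of the 12 pathway genes was called in this mean, and 8 of 8 slow fiber genes were higher in the mice labelled HuRm-/- (median 0.50).

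No member was called in the terms that ask whether the wheel difference depends on genotype, in which 0.0349% of genes were called in males, 0% in females and 0.00698% over both, and no member had an unadjusted p under 0.05 from limma or was called by edgeR or DESeq2. In females 1472 genes had an unadjusted p under 0.05 from limma, and DESeq2 called 11. For Vegfa the term was 0.066 over both sexes with a 95% interval of −0.15 to 0.28, and for Kdr it was 0.13 (−0.08 to 0.34). The mean wheel differences of these genes were 0.20 and 0.25. Both intervals hold a wheel difference larger by that much in the mice labelled HuRm-/-, and leave out one smaller by that much. The genotype difference did not differ by sex for any called member either (0.00698% of genes called), and Vegfa had the largest value (−0.25, SE 0.11, adjusted p = 0.553).

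Among mice of the same group, the members varied together in part. Pearson correlations were computed over 56 mice after each group's mean was subtracted, for 45 pairs, with 100000 permutations of mice within groups. A pair was called where both the Pearson and the Spearman adjusted p were at most 0.05, which 14 pairs met, all positive. By Pearson alone 15 did, with Flt1 and Cdh5 added (r = 0.36, permutation adjusted p = 0.0364, against 0.0696 for rho). The closest were Egfl7 with Pecam1 (r = 0.72, Spearman rho = 0.66) and Kdr with Flt1 (r = 0.71, rho = 0.70), each with the smallest permutation p that can be reached, 1e-05 (adjusted p = 0.000225). Without the 2 mice farthest from the median of the first gene, r was 0.65 and 0.69. Both pairs were positive within each of the 8 groups.

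Vegfa varied with its receptors Flt1 and Kdr, and about as closely with the ligand Vegfb. Its r was 0.50 with Flt1 (rho = 0.48, permutation p = 0.00026 and 0.00047, adjusted p = 0.00292 and 0.00283) and 0.49 with Kdr (rho = 0.45, permutation p = 0.00058 and 0.00165, adjusted p = 0.00315 and 0.00675), and 0.43 and 0.45 without the 2 farthest mice. With Vegfb it was 0.48 (rho = 0.50, permutation adjusted p = 0.00556 and 0.00283), and 0.46 without the 2 farthest mice. With Cdh5 it was 0.13 (adjusted permutation p = 0.503). Other ligands were less close to their receptors: r was 0.22 for Vegfb with Flt1 and −0.07 for Angpt1 with Tek, neither called. Tek stood apart, with r from −0.14 to 0.16 with every other member and no pair called. Tek has the fewest reads of the 10, and counting error lowers r. All 10 are measured in the same libraries, so shared depth and tissue makeup enter each r.

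**Figure D5:**
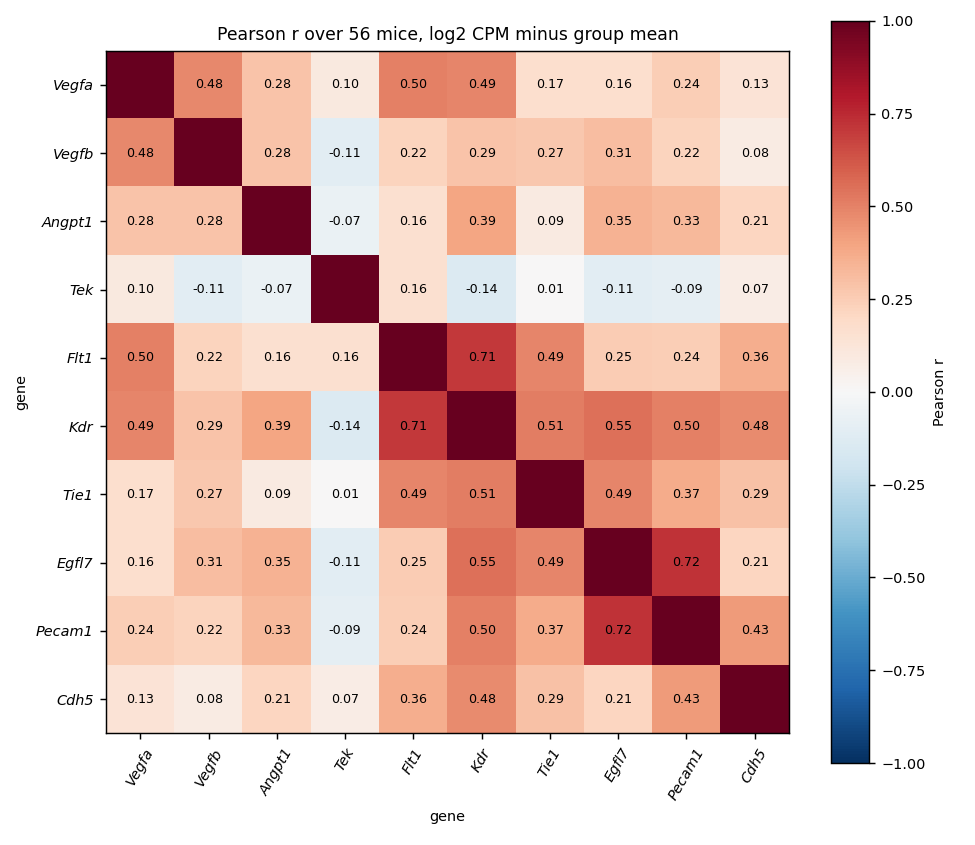
Pearson r between the 10 genes over 56 mice (both axes list genes; color and numbers give r) on log2 CPM minus the group mean. Kdr, Flt1, Tie1, Egfl7, Pecam1 and Cdh5 form a block of positive values up to 0.72, and the row of Tek lies between −0.14 and 0.16.

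The genes whose levels followed each member most closely, among all tested genes outside the 10, were listed by the same correlation over 56 mice, as a description without a test. For Vegfa they were the fatty acid transporter Cd36 (r = 0.75), the lactate transporter Slc16a1 (0.68) and Perm1, a muscle regulator induced by PGC-1 and ERR (0.65). For Vegfb they were the mitochondrial genes Ndufs7 (0.75) and Chchd10 (0.74) and the muscle chaperone Itgb1bp2 (0.74). For Kdr they were the endothelial surface genes Cd93 (0.72) and Esam (0.65) and the esterase Nceh1 (0.65). For Flt1 they were the pericyte gene Rgs5 (0.64), the endothelial phosphatase Ptprb (0.61) and Adgrf5 (0.60).

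Among the remaining members, Angpt1 followed n-R5-8s1 (0.61), Pla2g16 (0.55) and Nceh1 (0.54), and Egfl7 followed Nelfcd (0.61), Esam (0.60) and Zfand6 (0.58). Pecam1 followed Sft2d3 (0.62), Arpc3 (0.60) and the endothelial gene Ly6c1 (0.60), and Tie1 followed Epb41l4b (0.55), Aqp1 (0.55) and Cbx1 (0.52). Tek followed Mrgprf (0.57), Gm37052 (0.52) and Zfp595 (0.51), and Cdh5 followed Crybg1 (0.52), Gm43597 (0.51) and Myct1 (0.50), the last an endothelial gene.

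Reads of overlapping genes may enter some counts, since the sources do not settle whether strand was used. Gm17473, antisense to Angpt1, had 0 to 0.805 CPM, far below Angpt1 at 16.8 to 66.3. Agpat2, on the strand opposite Egfl7, had 3.35 to 17.9 CPM against 21.8 to 47.5 for Egfl7 and was 0.76 higher in females (SE 0.12, limma adjusted p = 3.95e-07). Its reads and those of Egfl7 cannot be told apart where they overlap without strand. Egfl7 also overlaps the protein-coding gene Gm20532 and Mir126a on its own strand, where strand does not part the reads, and Mir126b on the other. Cdh5 overlaps Gm29682 on the opposite strand. These further genes have no row of counts, so their share was not tested.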

How the data were processed

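The data are RNA-seq counts per gene from gastrocnemius muscle of 56 separate mice, 7 in each of 8 groups taken from the labels. The authors deposited 1 table of raw read counts with no normalization, and the submitters' processing notes name R 4.0.3, edgeR 3.38.4 and the mouse genome GRCm38 (mm10). The aligner is not given in the sources used here. The labels name a 3′ mRNA kit with forward reads and the study's methods a stranded total RNA kit with paired reads, and the counts do not settle which was used. Symbols were found for 15503 of 15539 gene identifiers.

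Counts were filtered with filterByExpr, scaled by TMM (edgeR 4.0.16) and fitted with voom and limma 3.58.1 in R 4.3.3, with 1 mean for each of the 8 groups, over 14321 genes. Wheel, genotype and sex differences, their means and the interaction terms gave 22 comparisons, each adjusted by the Benjamini-Hochberg method over all tested genes. CPM values were computed from the TMM-scaled totals. For correlations, log2 CPM was taken after adding a prior count of 2. Only the voom and limma fit was checked on simulated data, with wheel changes larger than those called for the members. The correlations, promoter matches and covariates were not checked in this way. P-values measure the spread between mice. Member counts per mouse ran from 58 to 2147, and counting error weighs most on Tek.

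The members and the gene lists were chosen with earlier results of these data known. Named are the 10 members, Elavl1, up to 3 genes in each direction from each list that were called in the mean wheel difference, and the 3 genes closest to each member. Outside that rule, Acta1 and Emcn are named as tissue checks, and Shb, Pgf and Ptprb, called between the sexes, after their values were seen. Agpat2, Gm17473, Gm20532, Mir126a, Mir126b and Gm29682 are named as genes that overlap a member. Mice of both sexes share some numbers, but same-numbered mice did not deviate together (r from −0.20 to 0.18), so the numbers were not taken as pairs. Alternatives were limma-trend, DESeq2 size factors, upper-quartile scaling, no filter, a minimum of 10 counts in every mouse, sample quality weights, cell marker covariates, edgeR's quasi-likelihood test, DESeq2 1.42.0, fits on the compared groups alone, a block on the animal number, and leaving out each mouse. Promoter sequences came from RefSeq.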

Additional observations from a re-analysis of the deposited data

Results flagged for a closer look

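In 80 sets of 7 mice (10 genes in 8 groups) the highest or lowest mouse was compared with its nearest neighbor, and 4 stood farther off than Dixon's critical value of 0.568 allows. Chance flags about 1 in 20 groups. Angpt1 was 66.3 CPM in FC mouse 20, where the next mouse had 43.6. In FH mouse 30, Cdh5 was 47.8 CPM (next 37.7) and Kdr was 77.9 CPM (next 65.6). Tie1 was 13.8 CPM in MCE mouse 26, the lowest of its group (next 17.02).

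The wheel difference of Vegfa differed between the sexes, by 0.57 on the log2 scale in HuRm-/- mice and by 0.46 over both genotypes, and that of Angpt1 by −0.38 over both genotypes. Each was called by the limma interaction term.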

How the results depend on the processing

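No member called in the main fit reversed its direction in that comparison under any alternative. Members that were not called were not followed for direction. The uncalled Elavl1 difference between genotypes in running females ran from −0.002 to 0.10 over the alternatives. Of 261 counts of called members under an alternative, 240 stayed within 1.5 times the main count. With DESeq2 size factors, 2 were called between the sexes in running HuRm-/- mice. With at least 10 counts in every mouse, 2 were called there and 2 between the sexes in locked controls. With sample quality weights, 1 was called between genotypes in running males and 3 between the sexes in running HuRm-/- mice. With the other endothelial markers as a covariate, 2 were called with the wheel in female HuRm-/- mice, 1 between genotypes in running males, 2 between the sexes in locked controls and 1 in the wheel by sex term over both genotypes. With adipocyte and liver markers, 0 were called with the wheel in female controls and 1 in the mean sex difference. With fibroblast markers, chosen after the data were seen, 0 were called with the wheel in male controls, 0 in female controls, 1 in the mean sex difference, 0 in the wheel by sex term in HuRm-/- mice and 0 over both genotypes. With DESeq2, 1 was called with the wheel in male HuRm-/- mice and 2 between the sexes in locked controls. With only the compared groups, 0 were called with the wheel in female HuRm-/- mice (Vegfa 0.51, limma adjusted p = 0.0531), 1 in the wheel by sex term in controls and 0 in HuRm-/- mice. The cause was not tested.

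Without 1 mouse, the count ran from 0 to 1 with the wheel in male and in female controls, between genotypes in running males, between the sexes in running controls, and in the wheel by sex term in controls and in HuRm-/- mice. It ran from 1 to 2 between the sexes in locked controls and in the wheel by sex term over both genotypes, and from 0 to 3 between the sexes in running HuRm-/- mice. Vegfa in female controls was lost without any of FC mice 12, 18 and 33 or FCE mice 5, 9, 26 and 27 (limma adjusted p at most 0.0865). The wheel by sex term of Vegfa in HuRm-/- mice was lost in 11 of 56 fits (at most 0.0735) and that of Angpt1 over both genotypes without MHE mouse 6 (0.058).

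With a replicate block on the animal number, 1 member, Angpt1, was called between the sexes in locked controls (1.05), running controls (0.39) and running HuRm-/- mice (0.52), as without it. The blocked fit used only mice whose number occurs in both sexes, and locked HuRm-/- mice share none.

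Counts over all genes moved more. In the mean sex difference 4720 were called, 1163 with adipocyte and liver markers and 1896 with fibroblast markers. With these 2 settings the count went from 1251 to 226 and 110 with the wheel in female controls, from 1961 to 962 and 140 in the wheel by sex term over both genotypes, from 1251 to 675 and 29 in controls and from 193 to 108 and 60 in HuRm-/- mice, and between the sexes in locked mice from 3079 to 754 and 389 in controls and from 2763 to 477 and 628 in HuRm-/- mice. With the wheel it was 464 in male controls (163 with fibroblast markers, 1046 with quality weights), 6 in male HuRm-/- mice (226 with DESeq2, 46 with edgeR), 551 in female HuRm-/- mice (161 with only these groups) and 854 in the mean (1331 with quality weights). Between genotypes it was 165 in locked males (14 to 405 over the alternatives), 55 in locked females (0 to 169), 376 in running males (156 to 1037) and 0 in running females (up to 71). In the sexes with the block it was 1627, 529 and 364, against 3079, 1096 and 797 in the main fit. The blocked fits held only 3, 5 and 4 mice of each sex, so the block and the loss of mice cannot be told apart. Without 1 mouse, counts over all genes ran from 194 to 618 with the wheel in male controls, 770 to 1459 in female controls, 2 to 10 in male HuRm-/- mice, 114 to 314 in the wheel by sex term in HuRm-/- mice and 531 to 931 between the sexes in running HuRm-/- mice. Depth limits Tek most.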
